A study of Mustela putorius furo with 8 samples.

Results

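Matrix metalloproteinases (MMPs) are zinc-dependent proteases that cut extracellular matrix, cell surface proteins and other proteases, and tissue inhibitors of metalloproteinases (TIMPs) are the secreted proteins that bind and block them. Most MMPs leave the cell as inactive proforms, so that transcript levels alone do not give protease activity. In the pancreas the matrilysin MMP7 is known from ductal metaplasia and duct-derived tumours, and TIMP1 is known as an inducible inhibitor in injured and inflamed tissue. The members described here were taken by symbol from the rows of the count matrices: 4 proteases (MMP7, MMP9, MMP13 and MMP14) and 3 inhibitors (TIMP1, TIMP2 and TIMP3), 7 genes of 27912. All 7 symbols were present.

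The data were 10x Genomics single-cell RNA libraries of ferret pancreatic ductal epithelial (PDE) cultures. Duct cells had been grown out of the pancreas of newborn animals, passaged repeatedly and seeded on transwell membranes, where they differentiated at an air-liquid interface (ALI) until the cultures were dissociated for sequencing on day 2, 5, 7 and 9. The 2 genotypes were wild type (WT) and CFTR KO/KO (CF), in which both copies of CFTR, the anion channel lost in cystic fibrosis, are knocked out, and no treatment was given beyond the culture media shared by all. Each genotype was sequenced once on each day, which gives 8 libraries. The study states that cells of several donors were pooled for sequencing, so a library stands for a pool of cultured, repeatedly passaged cells and not for 1 animal, and no value below has a replicate error.

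The 8 libraries held 32945 retained cells of 44243 deposited barcodes and between 34735952 and 114585136 UMIs (unique molecular identifiers, each 1 counted transcript molecule). The CF day 7 library was the shallowest, and 411 of its 1607 cells held under 3000 UMIs. The median cell held 14949 to 16862 UMIs in the WT libraries and 17833 to 23427 in the CF libraries, and its mitochondrial share ranged from 6.63% to 10.7% (WT) and from 5.65% to 7.04% (CF). Of the retained barcode sequences, 148 occurred in more than 1 library. CFTR itself still gave UMIs in CF, at 2.50 to 11.4 CPM against 6.57 to 29.5 CPM in WT, lower in CF on each day, and a transcript count near the 3′ end need not show a disrupted copy, so these levels do not check the knockout. The ductal label was checked against marker lists. All 10 duct epithelium markers reached 1 CPM, and they summed to 8286 to 10773 CPM in WT libraries and to 9521 to 10038 CPM in those of CF. No acinar, islet or endothelial marker reached 1 CPM, and the acinar check was made on 3 genes only. Of 8 fibroblast markers 5 reached 1 CPM, with sums of 2.30 to 5.79 CPM (WT) and 1.54 to 32.8 CPM (CF). Of 9 leukocyte markers 2 reached 1 CPM (CD68 and CD14), CSF1R was at 0, and the sums were 7.99 to 19.5 CPM (WT) and 5.82 to 24.9 CPM (CF).

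Levels are given as CPM, the UMIs of a gene per 1e6 UMIs of the same library, class or cluster, each with its 95% Poisson interval, which covers counting error only. A difference is the log2 of CPM + 1 in the first group minus that in the second. A gene was called 2-fold apart where that difference was at least 1 in size and where the gene reached 10 CPM in at least 1 library, and 8698 genes did. MMP9 did not, so 6 of the 7 members entered these counts. A library's CPM mixes the level in each kind of cell with the number of such cells, which is why every member is also given by cluster. The clusters, 41 in WT and 30 in CF, are those deposited with the data, where each genotype had been clustered and named by itself. Clusters are therefore given by genotype and number, and class names are used only within a genotype. The exception is the alternative with equal weight of each class, which matched WT and CF classes by name.

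MMP14 was called lower in CF on all 4 days, and it was the only member called on every day. The share of all genes called on all 4 days was not counted. TIMP1 was higher in CF on all 4 days but past 2-fold on 2 of them, and TIMP2 was also past 2-fold on 2 days. At day 2, MMP7, MMP13, TIMP1 and TIMP2 were called higher in CF and MMP14 lower, which is 4 and 1 of the 6 members, against 4.79% and 4.25% of all genes tested. At day 5 no member was called higher (2.53% of all genes) and only MMP14 lower (4.69%). At day 7 TIMP2 was called higher (4.87%) and MMP14 lower (3.66%), and at day 9 TIMP1 higher (3.58%) and MMP14 lower (3.92%). The median difference of the 6 members was 1.46, 0.04, 0.24 and 0.01 at day 2, 5, 7 and 9, beside medians of 0.00, -0.05, 0.12 and 0.08 over all genes tested. With 1 library in each group none of these counts carries a test. The plot of levels by library shows the 7 members one by one.

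**Figure D1:**
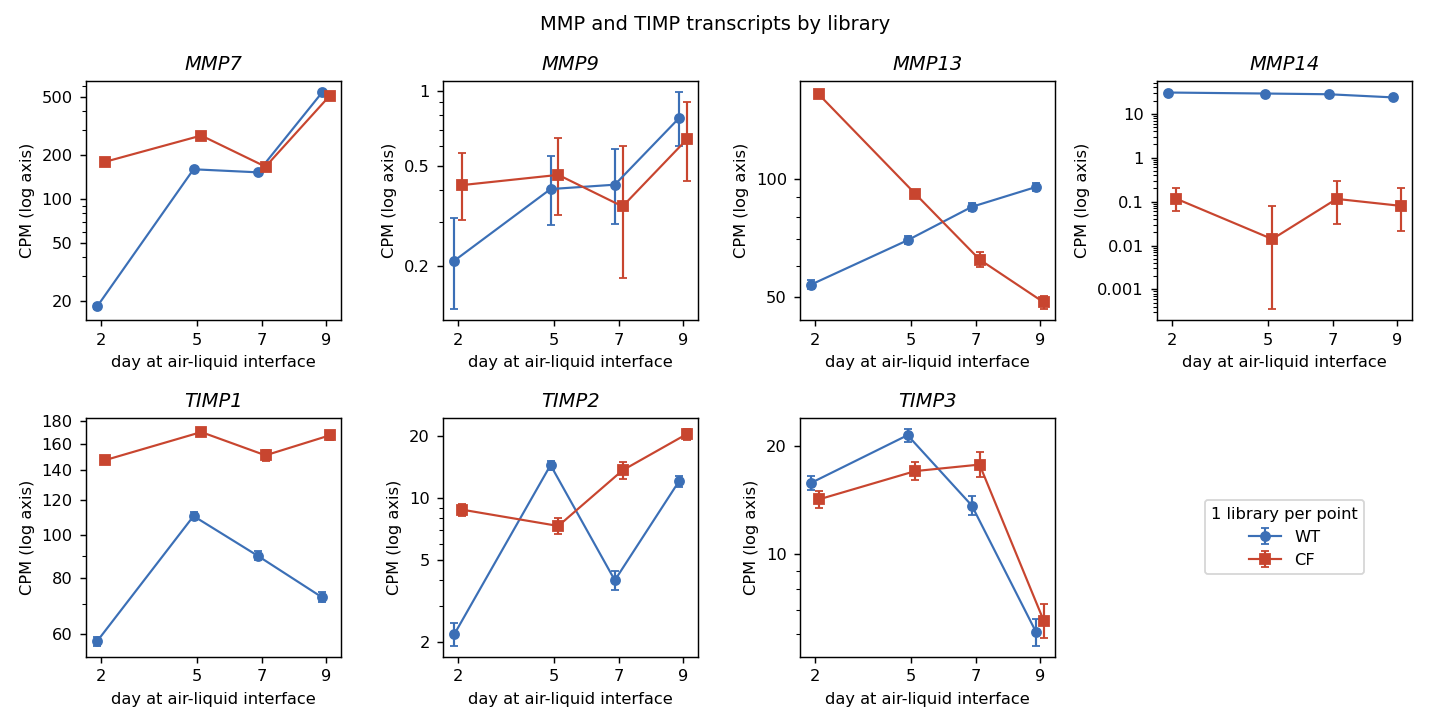
Level of each MMP and TIMP gene in the WT and CF libraries (CPM, log axis, a separate scale in each panel) against the day at the air-liquid interface. Each point is 1 library and its bar the 95% Poisson interval (counting error only). MMP14 lay between 23.6 and 30.4 CPM in WT and at or below 0.12 CPM in CF, MMP13 crossed between day 5 and day 7, and TIMP1 was higher in CF at every day.

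MMP7 (matrilysin) is the smallest of the proteases, lacks the hemopexin domain of its relatives and is made by epithelial cells. It was at 18.5 (17.7–19.3), 161 (158–163), 153 (150.5–156) and 539 (534–544) CPM in WT at day 2, 5, 7 and 9. In CF it was at 181 (178–183), 274 (269.7–277), 167 (163–172) and 513 (507–519) CPM. The WT day 2 library stood below the other 7, and the 2 day 9 libraries stood above the other 6. The difference between CF and WT was therefore 3.22 at day 2, 0.76 at day 5, 0.13 at day 7 and -0.07 at day 9, and the ratio of CF to WT at day 2 was 9.78 (9.35–10.2). From day 2 to day 9 MMP7 rose by 4.80 in WT, a ratio of 29.2 (28.0–30.5), and by 1.501 in CF, a ratio of 2.84 (2.79–2.89). With equal weight of each class the CF value was 0.64, under the 2-fold limit.

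MMP7 was unevenly spread over cells. The unthinned share of cells with an MMP7 UMI was 6.25%, 35.7%, 37.1% and 66.7% in WT and 36.6%, 45.1%, 30.3% and 46.1% in CF (thinned, 1.99%, 18.4%, 17.3% and 43.0%, and 17.5%, 24.7%, 19.1% and 32.5%), beside thinned shares of 0 of 279 cells in WT cluster 28 (median depth 20339.5 UMIs) and 0.737% in CF cluster 2 (12893 UMIs). The tenth of cells with the most MMP7 UMIs held 100%, 80.1%, 82.8% and 60.5% of them in WT in day order, and 79.3%, 68.6%, 78.4% and 67.3% in CF. WT cluster 17, a ductal cluster of 603 cells, reached 2200 (2171–2229) CPM, the highest level of any cluster, followed in WT by cluster 40 with 1214 CPM from only 29 cells and cluster 33 with 1158 CPM. In CF the highest were cluster 7 with 1442 (1423–1461) CPM, cluster 25 with 866 CPM and cluster 17 with 863 CPM. The lowest were WT cluster 28 with 0.48 (0.10–1.41) CPM and CF cluster 2 with 3.91 CPM. MMP7 thus spanned the widest range of the members over clusters and high clusters occurred in both genotypes.

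Different clusters carried MMP7 at different days. In CF, cluster 4 held 61.9% of the day 2 MMP7 UMIs in 13.6% of the cells, while cluster 7 held 81.3% of those at day 9 in 19.0% of the cells. Without cluster 7, MMP7 at CF day 9 was at 134 (129.96–138) CPM in place of 513. In WT, cluster 17 held 43.4% of the UMIs at day 7 and 29.7% at day 9. Without cluster 17 the WT levels were 18.0, 135, 89.7 and 411 CPM, so day 9 stayed the highest of the 4. Within clusters that had at least 50 cells on 2 or more days, MMP7 was at least 2-fold higher on the last than on the first such day in 7 of 22 WT clusters and 8 of 15 CF clusters, and at least 2-fold lower in 2 and 1.

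MMP9 (gelatinase B), which cuts denatured collagen and basement membrane collagen and is best known from leukocytes, was close to absent. It was at 0.21, 0.41, 0.42 and 0.78 CPM in WT and 0.42, 0.46, 0.35 and 0.64 CPM in CF, from 24 to 66 UMIs in a WT library and 12 to 43 in a CF library. Only the day 2 ratio of CF to WT had an interval that left out 1, at 2.01 (1.19–3.46), and at these levels no call was made. At day 9 MMP9 was at 1.74 CPM in the SOX2-low WT cells defined below and 0.36 CPM in the other WT cells, and 41 of the 66 UMIs came from WT cluster 8, a ductal cluster of 810 cells at 2.91 (2.09–3.95) CPM. A single cell of that library held 14 of the 66, so the Poisson interval is too narrow here. The higher value of WT cluster 38, 4.87 CPM, rests on 1 UMI, as do those of CF clusters 21 and 13, whose median cells held 1044 and 1018 UMIs. In CF the highest level with more than 1 UMI was that of cluster 3, with 18 UMIs or 1.29 (0.76–2.04) CPM.

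MMP13 (collagenase-3), which cleaves fibrillar collagen, ran in opposite directions in the whole libraries of the 2 genotypes. In WT it was at 53.7 (52.4–55.0), 69.7 (68.1–71.3), 84.8 (82.8–86.8) and 95.3 (93.2–97.4) CPM, each day above the one before. In CF it was at 164 (162–167), 91.5 (89.3–93.8), 62.2 (59.6–64.9) and 48.4 (46.4–50.3) CPM, each day below the one before. The highest and the lowest of the 8 libraries were both CF. The SOX2-low WT cells defined below did not share the WT rise. They held 153, 88.7, 73.6 and 134 CPM of MMP13, falling to day 7 and lower at day 9 than at day 2. The difference between CF and WT was 1.59, 0.39, -0.44 and -0.96 in day order, and the change from day 2 to day 9 was 0.82 in WT and -1.74 in CF. After every cell had been thinned to 3000 UMIs, 33.8%, 17.2%, 12.96% and 10.9% of CF cells and 11.8%, 13.4%, 16.2% and 17.5% of WT cells held an MMP13 UMI, beside 2.01% in the CF cluster with the lowest share (cluster 17, median depth 24799 UMIs) and 4% in that of WT (cluster 2, 14254 UMIs). Unthinned, the shares were 74.0%, 49.2%, 30.7% and 30.1% in CF and 37.4%, 35.9%, 40.9% and 41.5% in WT.

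The clusters with the most MMP13 were CF clusters 28, 20 and 1 with 343 (323–365), 342 (323–360) and 291 (281–302) CPM. At least 93.8% of the cells of each came from day 2. CF clusters 10, 24 and 6 followed with 250.5, 225 and 208 CPM. Within WT the highest were clusters 12 and 19 at 192 (185–200) and 169 (160–178) CPM, and WT cluster 35, with 160 CPM, had a median of 1898 UMIs per cell. The lowest levels were 7.80 CPM in CF cluster 17 and 13.7 CPM in WT cluster 2. Within the 15 CF clusters present on 2 or more days the median change of MMP13 from the first to the last such day was -0.46, with 1 cluster at least 2-fold higher and 2 at least 2-fold lower. Within the 22 such WT clusters the median was 0.34, and 2 were at least 2-fold higher.

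MMP14 is a membrane-anchored collagenase that, together with TIMP2, activates the gelatinase MMP2 at the cell surface. It was at 30.4 (29.4–31.5), 28.9 (27.9–29.97), 27.8 (26.7–29.0) and 23.6 (22.6–24.6) CPM in the 4 WT libraries. In the 4 CF libraries it had 12, 1, 4 and 4 UMIs, or 0.12, 0.01, 0.12 and 0.08 CPM. WT and CF did not overlap, and the share of all genes without such overlap was not counted. Over all days 10719 UMIs were counted in WT and 21 in CF, and the ratio of WT to CF was 344 (225–556). On the log2 scale with its pseudocount of 1 CPM the difference was -4.81, -4.88, -4.69 and -4.51, which understates the ratio of a gene so near 0. After thinning, between 7.05% and 9.72% of WT cells held an MMP14 UMI and 0, 0, 1 and 0 CF cells did. Unthinned, the shares were 26.7% to 39.0% in WT and 0.11%, 0.036%, 0.062% and 0.080% in CF.

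The 21 MMP14 UMIs of CF lay in 9 cells. Of these 9 cells, 6 also held UMIs of COL1A1, a collagen of mesenchymal cells, 7 held UMIs of an epithelial marker (EPCAM, KRT8 or KRT19), and 5 belonged to CF cluster 11. The barcode of 1 of the 9 occurred in several libraries. At CF day 2, 10 of the 12 UMIs were in cluster 11, which then had only 5 cells. Those 5 cells held 89473 UMIs in all, among them 451 of COL1A1, 113 of COL3A1 and 20 of MMP2, 1 of them had an EPCAM UMI, and 53 UMIs of KRT19 were counted. The whole CF day 2 library had 21 MMP2 UMIs and 459 of COL1A1. Without cluster 11, MMP14 in CF came to 2, 1, 0 and 1 UMIs. Over all days CF cluster 11 was at 1.68 (0.98–2.68) CPM, 25 of the other 29 CF clusters were at 0, and the remaining 4 (clusters 1, 19, 20 and 25) had 1 UMI each.

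MMP14 also split the WT clusters. SOX2, a progenitor transcription factor, was under 10 CPM in 12 WT clusters (called SOX2-low here) and above it in the other 29 (SOX2-high), a limit that was known from earlier results of these data and is not a grouping of the study. All 30 CF clusters were also under this limit, with SOX2 at most at 1.08 CPM (CF cluster 27). MMP14 lay between 0.33 and 4.87 CPM in the 12 SOX2-low clusters, median 1.31, and between 18.4 and 117 CPM in the 29 SOX2-high clusters, median 33.5, with no overlap. The share of all genes that part these clusters without overlap was not counted. The 4.87 CPM are 1 UMI of WT cluster 38, and the next of the SOX2-low clusters, WT cluster 33, was at 2.77 CPM. The highest levels were 117 (103–133) CPM in WT cluster 20, whose median cell held 3398 UMIs, 67.7 CPM in WT cluster 2 and 62.1 CPM in WT cluster 5. Day by day the SOX2-low WT cells held 34, 52, 37 and 22 MMP14 UMIs and 57, 44, 54 and 56 SOX2 UMIs, and the SOX2-high cells 3454, 2873, 2270 and 1977 MMP14 UMIs and 13067, 6890, 5739 and 7472 SOX2 UMIs. The part of free RNA in the low counts was not tested. Against SOX2-low WT cells alone MMP14 was still lower in CF, with ratios of CF to WT of 0.051 (0.024–0.10), 0.012 (0.00031–0.073), 0.089 (0.023–0.25) and 0.094 (0.024–0.28). On the log2 scale with its pseudocount these are -1.57, -1.06, -1.04 and -0.78, so that MMP14 was not called at day 9 against these cells.

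TIMP1, which inhibits most MMPs and binds the proform of MMP9, was higher in CF at every day. It was at 57.9 (56.5–59.3), 110 (108–112), 89.9 (87.8–91.9) and 72.6 (70.8–74.4) CPM in WT and at 147 (145–149), 169.8 (167–173), 151 (147–155) and 167 (163–171) CPM in CF. The lowest CF library was above the highest WT library. How many of all genes separate the libraries in this way was not counted. The CF/WT ratio was 2.54 (2.46–2.61), 1.54 (1.501–1.58), 1.68 (1.62–1.74) and 2.30 (2.23–2.38), so that day 2 and day 9 were called 2-fold apart and day 5 and 7 were not. The day 9 call was lost with equal weight of each class, where the difference was 0.77 in place of 1.19. The thinned share of cells with a TIMP1 UMI was between 33.4% and 38.8% in CF and between 13.4% and 18.9% in WT, beside 10.9% in CF cluster 19 (median depth 25752 UMIs) and 0.789% in WT cluster 24 (17160.5 UMIs), the clusters with the lowest shares. Unthinned, it was between 66.0% and 86.3% in CF and between 37.0% and 45.0% in WT.

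The WT clusters parted for TIMP1 in the direction opposite to MMP14. TIMP1 lay between 131 and 328 CPM in the SOX2-low WT clusters, between 5.61 and 143 CPM in the SOX2-high ones and between 47.2 and 314 CPM in CF. The highest were WT clusters 34 (328 CPM), 11 (247 CPM) and 31 (216 CPM) and CF clusters 5 (314 CPM), 11 (275 CPM) and 28 (271 CPM), and the lowest were WT cluster 10 (5.61 CPM) and CF cluster 19 (47.2 CPM). Set against SOX2-low WT cells alone, TIMP1 was not higher in CF: the CF/WT ratio was 0.73, 0.80, 0.78 and 0.90 in day order, and the upper bounds of all 4 intervals were under 1. Set against SOX2-high WT cells it was 3.97, 7.18, 4.32 and 7.13. TIMP1 was thus higher in CF than in the SOX2-high WT cells and not higher than in the SOX2-low ones. SOX2-high cells made up most WT cells (5332, 3525, 3358 and 3906 cells in day order, against 892, 1801, 1276 and 1510 SOX2-low cells). The make-up of the cultures and the genotype cannot be told apart in these libraries.

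**Figure D2:**
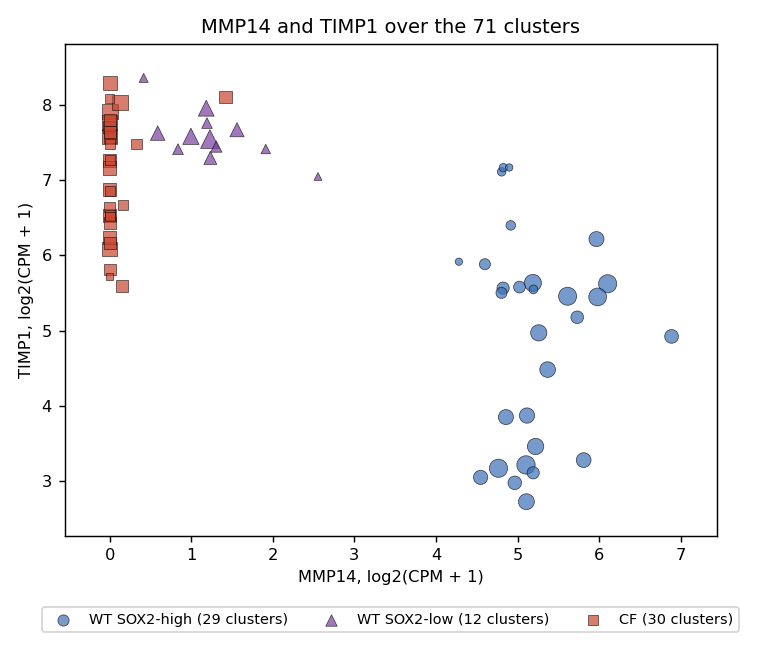
TIMP1 against MMP14, both as log2(CPM + 1), in the 71 clusters, with the symbol area following the number of cells. Squares are CF clusters, triangles WT clusters with SOX2 under 10 CPM and circles the other WT clusters. SOX2-low WT clusters have MMP14 of at most 4.87 CPM (median 1.31) and TIMP1 of at least 131 CPM. CF clusters have MMP14 of at most 1.68 CPM (median 0) and TIMP1 from 47.2 to 314 CPM. SOX2-high WT clusters lie apart with MMP14 of at least 18.4 CPM.

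TIMP2, which both inhibits MMPs and joins MMP14 in activating MMP2, moved without a steady order. It was at 2.17 (1.91–2.46), 14.5 (13.8–15.3), 3.99 (3.57–4.44) and 12.1 (11.4–12.9) CPM in WT and at 8.80 (8.24–9.40), 7.33 (6.72–7.99), 13.7 (12.5–15.0) and 20.5 (19.3–21.8) CPM in CF. WT was higher at day 5 and CF at the other 3 days, with differences of 1.63, -0.90, 1.56 and 0.72. The day 5 and day 9 directions held under 8 of 9 alternative settings each, with values up to 0.91 at day 5 and down to -0.017 at day 9. From day 2 to day 9 TIMP2 rose by 2.05 in WT and 1.14 in CF, but the CF value was 0.029 with equal weight of each class, 0.89 with TMM factors and 0.92 with size factors, all under the 2-fold limit.

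In each genotype the 2 clusters with the most TIMP2 were also the 2 with the most COL1A1. The highest WT levels were in clusters 20 (84.6, 72.5 to 98.0 CPM), 2 (65.3, 61.6 to 69.2 CPM) and 38 (43.8 CPM from 9 UMIs). The highest CF levels were in clusters 11 (48.7, 44.5 to 53.2 CPM), 23 (37.4, 25.2 to 53.4 CPM from 30 UMIs) and 13 (35.2, 21.8 to 53.9 CPM from 21 UMIs). The intervals of CF clusters 23 and 13 overlap, so counting error leaves their order undecided. The lowest levels were 1.15 CPM in WT cluster 24 and 2.06 CPM in CF cluster 29. WT cluster 2 held 47.9% of the day 5 TIMP2 UMIs in 12.7% of the cells and 39.4% of the day 9 UMIs in 5.93% of the cells. Without WT clusters 2 and 20, the WT levels were 2.17, 7.39, 3.56 and 7.21 CPM, and at day 5 WT (6.84–7.98) and CF, with 7.33 CPM, were level within counting error. COL1A1 was highest in WT clusters 20 (4.81 CPM from 10 UMIs) and 2 (2.77 CPM from 48 UMIs) and in CF clusters 11 (140.5 CPM) and 23 (101 CPM). Its median over clusters was 0 CPM in WT and 0.094 CPM in CF. The next WT clusters by COL1A1, 23, 36 and 5 (1.18, 0.73 and 0.70 CPM), held 32.4, 23.3 and 35.8 CPM of TIMP2. CF clusters 3 and 13 (14.4 and 3.36 CPM of COL1A1) held 32.7 and 35.2 CPM of TIMP2. There were exceptions, since CF cluster 27 was the third for COL1A1 with 30.2 CPM and held 8.63 CPM of TIMP2, near the CF median of 8.32 CPM, and WT cluster 38 had no COL1A1 UMI. By library COL1A1 was at 0, 0.65, 0.072 and 0.15 CPM in WT and 4.49, 0.084, 18.9 and 13.2 CPM in CF. The part of cells with COL1A1 in the level of TIMP2 was not tested beyond leaving out WT clusters 2 and 20 and CF cluster 11. CF without cluster 11 was at 8.61, 7.32, 10.7 and 15.9 CPM, still above WT at day 2, 7 and 9. At CF day 9 the cluster with the most TIMP2 UMIs was cluster 3, which held 37.6% of the TIMP2 UMIs in 20.9% of the cells.

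TIMP3, the inhibitor that stays bound to the matrix and also blocks ADAM proteases, changed with time more than with genotype when whole libraries were compared. It was at 15.8 (15.1–16.5), 21.4 (20.5–22.4), 13.7 (12.9–14.5) and 6.09 (5.57–6.63) CPM in WT and at 14.2 (13.5–15.0), 17.04 (16.1–18.0), 17.8 (16.4–19.2) and 6.54 (5.85–7.29) CPM in CF. Both day 9 libraries were below the other 6. TIMP3 fell by 1.25 from day 2 to day 9 in WT and by 1.01 in CF, but the WT value was under the 2-fold limit with a pseudocount of 5 (-0.91) or equal weight of each class (-0.51), and the CF value with a pseudocount of 5 (-0.74) or thinned cells (-0.86). The difference between CF and WT was -0.14, -0.31, 0.36 and 0.09. Against SOX2-low WT cells alone it was -0.55, -1.28, -0.83 and -1.05. The highest levels were in WT clusters 11 (53.7 CPM), 0 (39.9 CPM) and 31 (36.6 CPM), all SOX2-low and all mainly of day 5, and in CF clusters 16 (42.6 CPM), 0 (37.8 CPM) and 27 (35.6 CPM). WT cluster 32 and CF cluster 29 had no TIMP3 UMI, which allows up to 1.196 and 7.61 CPM.

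The change over days was counted over the members as well. From day 2 to day 9, 2 of the 6 members (MMP7 and TIMP2) were at least 2-fold higher in WT, against 9.99% of all genes tested, and 1 (TIMP3) at least 2-fold lower, against 6.07%. In CF the same 2 were at least 2-fold higher, against 6.91%, and MMP13 and TIMP3 at least 2-fold lower, against 3.5%. The deposited pseudotime scores, which order the cells along 15 WT and 13 CF lineages and were made from the same cells and genes, were cut into 5 bins of equal cell number in each lineage. The last bin was at least 2-fold above the first for MMP7 in 11 of 15 WT and 7 of 13 CF lineages and below it in none. For MMP13 it was at least 2-fold below the first in 10 of 13 CF lineages and in 1 of 15 WT lineages, and above it in 0 and 4. TIMP3 was at least 2-fold lower at the end in 8 of 15 WT and 5 of 13 CF lineages. Lineages of a genotype share most of their cells, so these counts are not independent. The study also began the ordering of each genotype in its cluster richest in day 2 cells, so pseudotime is no independent check of the changes over days.

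The split of the WT cells by SOX2 gave each member a different place for CF, as the plot of CF beside SOX2-low and SOX2-high WT cells shows. For MMP13, CF and SOX2-low WT cells were close at day 2 and 5, with 164 against 153 CPM and 91.5 against 88.7 CPM. They stood at 62.2 against 73.6 CPM at day 7 and parted further at day 9, with 48.4 against 134 CPM. SOX2-high WT cells held 39.1, 53.6, 90.7 and 78.2 CPM of MMP13. For MMP7, SOX2-low WT cells held 81.1, 102, 262 and 800 CPM and SOX2-high ones 9.25, 211, 96.0 and 425 CPM. At day 2 both WT sets were below CF, which was 2.23 (2.10–2.36) times the SOX2-low level and 19.5 (18.3–20.9) times the SOX2-high level. For TIMP3, SOX2-low cells stood above CF at every day (21.3, 42.7, 32.3 and 14.6 CPM) and SOX2-high cells below CF from day 5 on (15.0, 3.45, 3.85 and 2.34 CPM). For TIMP2, SOX2-low cells held 3.27, 3.45, 2.55 and 8.17 CPM, less than CF at each day, and the WT peak of day 5 lay in the SOX2-high cells with 23.9 CPM.

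**Figure D3:**
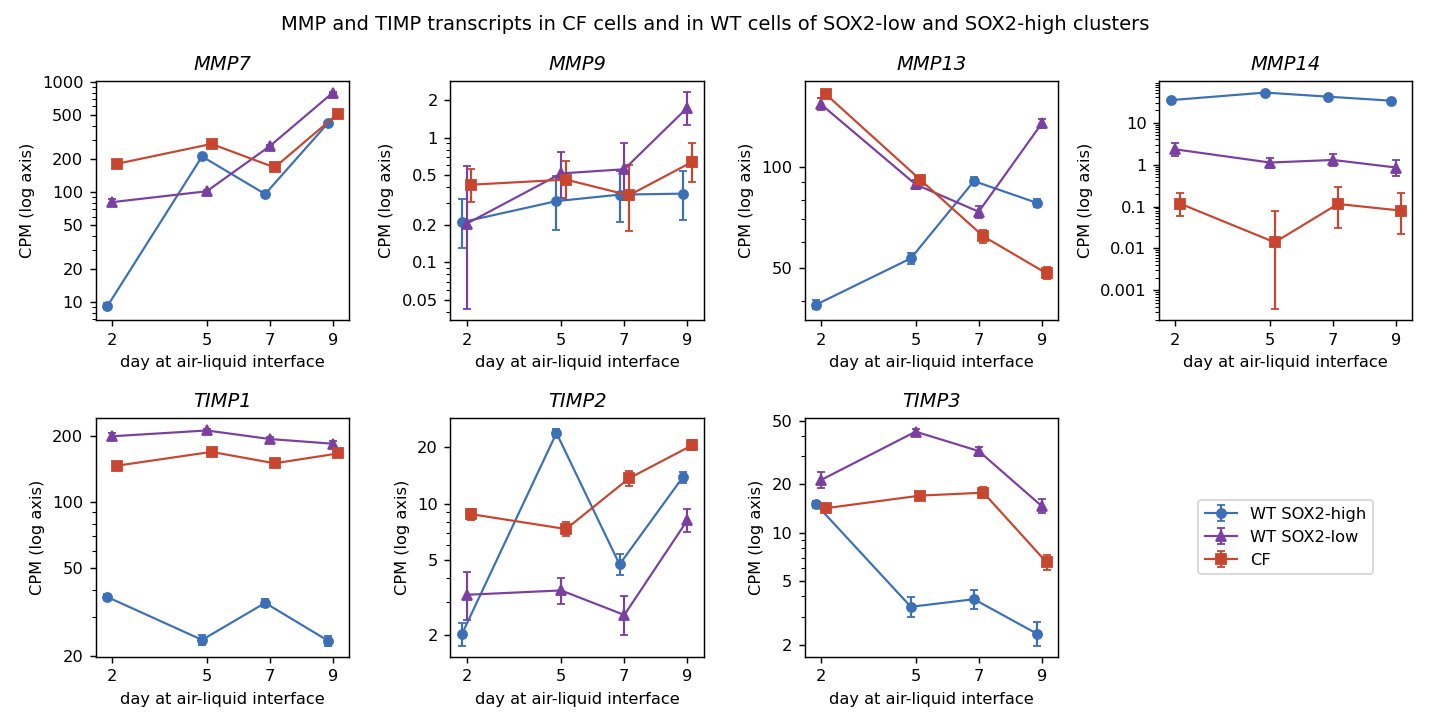
Level of each member (CPM, log axis) against day in CF cells, in WT cells of the 12 SOX2-low clusters and in WT cells of the 29 SOX2-high clusters, with 95% Poisson intervals. CF lay with the SOX2-low WT cells for TIMP1 and, at day 2 and 5, for MMP13, and below both WT sets for MMP14.

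Proteases and inhibitors were then set against each other as the log2 of the summed UMIs of the 4 MMPs over those of the 3 TIMPs. UMIs are counted near the 3′ end of transcripts, so the ratio can be followed from library to library and cluster to cluster but is no ratio of proteins. In WT it was higher at each later day, with 0.44 (0.40–0.48) at day 2, then 0.83, 1.31 and 2.86 (2.83–2.89). In CF it was 1.02 (1.00–1.05), 0.91, 0.34 and 1.53 (1.501–1.57). CF minus WT was thus 0.59 (0.54–0.63) at day 2, 0.08 (0.043–0.13) at day 5, -0.97 (-1.03 to -0.91) at day 7 and -1.33 (-1.37 to -1.28) at day 9. MMP7 gave 18.0%, 61.9%, 57.5% and 81.8% of the protease UMIs in WT and 52.3%, 74.8%, 72.8% and 91.3% in CF, and TIMP1 gave between 75.4% and 87.4% of the inhibitor UMIs in all 8 libraries. At day 2 MMP13 was the largest protease term in WT, with 6152 of 11779 UMIs, and it gave 16799 of 35332 in CF. With the mean of log2(CPM + 1) over MMPs minus that over TIMPs, which gives each gene equal weight, CF was lower than WT on all 4 days, by -0.88, -0.72, -2.15 and -2.08. The sign of the day 2 and day 5 values therefore depends on how the genes are weighted, and that of day 7 and 9 did not change. MMP14 entered the equal-weight mean with the largest difference of any member on each day (-4.81, -4.88, -4.69 and -4.51). That mean was not recomputed without MMP14. The day 5 sign of the UMI ratio also turned with thinned cells, with equal weight of each cell or class and with all deposited barcodes, as given in the closing section.

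Over the 71 clusters the ratio ran from -2.89 (-3.07 to -2.71) in CF cluster 16 to 6.20 (5.89–6.54) in WT cluster 21. The interval lay above 0 in 45 clusters, below 0 in 20 and across 0 in 6. Inhibitor UMIs outnumbered protease UMIs in 8 of the 12 SOX2-low WT clusters, in 4 of the 29 SOX2-high ones and in 10 of the 30 CF clusters, and the medians were -0.37, 1.63 and 0.37. By class within WT, proteases led in all 8 centroacinar progenitor clusters (2.54–6.20) and in 7 of 8 centroacinar clusters, and in 11 of 21 ductal clusters. Within CF they led in all 5 centroacinar progenitor clusters (2.75–3.40), in 9 of 10 ductal clusters and in 5 of 14 centroacinar clusters. The extremes differed in make-up. WT cluster 21 held 5157 MMP7, 511 MMP13, 229 MMP14 and 52 TIMP1 UMIs, and CF cluster 16 held 238 MMP13, 54 MMP7, 1700 TIMP1, 326 TIMP3 and 164 TIMP2 UMIs.

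**Figure D4:**
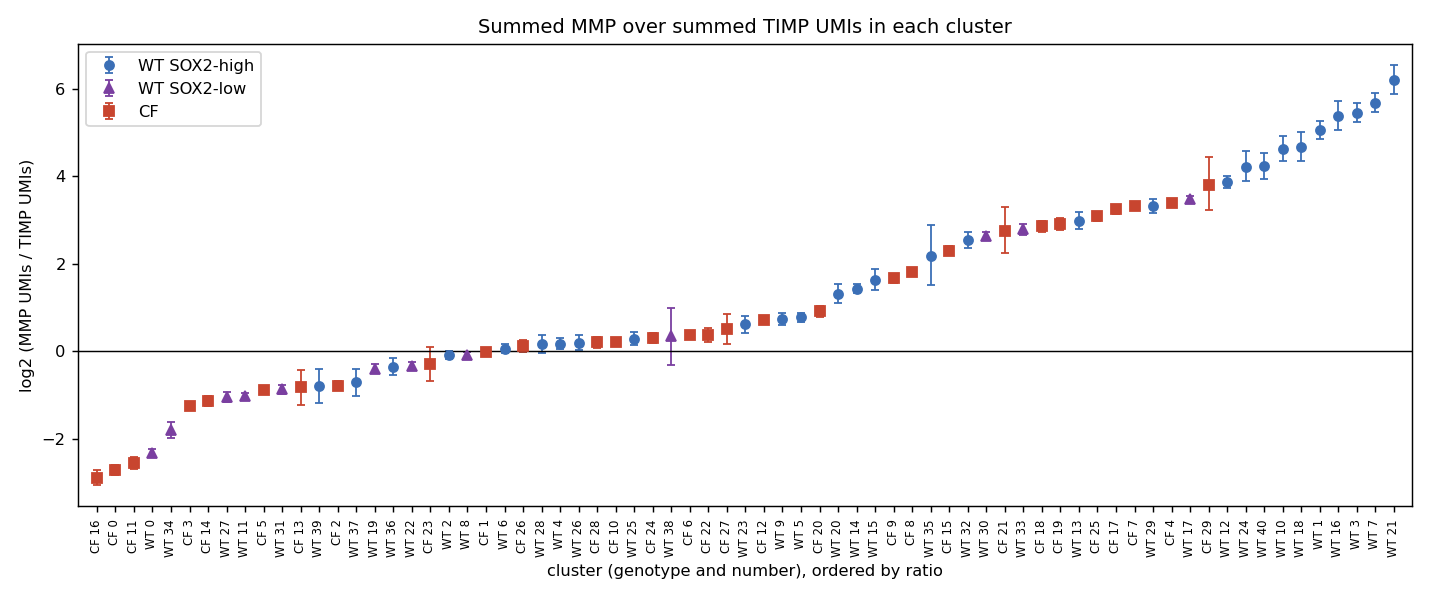
Log2 of summed MMP UMIs over summed TIMP UMIs in each of the 71 clusters, ordered from lowest to highest, with 95% intervals (Clopper-Pearson on the protease share, counting error only). Points above the line at 0 have more MMP than TIMP UMIs. The highest 10 clusters are SOX2-high WT clusters and the lowest 3 are CF clusters 16, 0 and 11.

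The pairs that are known to act together, MMP14 with TIMP2 and MMP9 with TIMP1, were separated as well. MMP13 was set against TIMP1 beside them. MMP14 UMIs outnumbered those of TIMP2 in WT at each day (log2 ratio 3.81, 0.99, 2.80 and 0.96) and were far below them in CF (-6.23, -9.03, -6.89 and -8.00). MMP9 UMIs were far below those of TIMP1 in all 8 libraries (log2 ratio between -8.77 and -6.54). MMP13 and TIMP1 were within 1 of each other on the log2 scale in WT (-0.11, -0.66, -0.08 and 0.39), and in CF the ratio was lower at each later day (0.16, -0.89, -1.28 and -1.79).

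Whether a protease and an inhibitor transcript were found in the same cells differed from pair to pair. Over the 71 clusters the Pearson correlation of log2(CPM + 1) of MMP7 and TIMP3 was -0.69 (Spearman -0.71), -0.61 over the 41 WT clusters and -0.87 over the 30 CF clusters. These clusters share libraries and were made from the same genes, so this is a description. In thinned cells MMP7 and TIMP3 were found together 0.079 to 0.35 times as often as the product of their shares gives in the 4 CF libraries and 0.33 to 0.57 times in the 4 WT libraries. The ends of such ranges can rest on few cells. The 0.079, at CF day 7, was 1 cell where the product gave 12.6. MMP7 and TIMP1 were found together 0.55 to 0.76 times as often in CF and 0.46 to 1.65 times in WT, where the value above 1 is that of day 2. MMP7 and TIMP2 were found together 0.27 to 0.88 times as often in CF and 0.33 to 0.56 times in the 3 WT libraries with a product of at least 5 cells. TIMP1 and TIMP3, both inhibitors, were found together 1.14 to 1.39 times as often in CF and 1.18 to 2.11 times in WT, and their correlation over clusters was 0.61. MMP14 and TIMP3 were found together 0.19 to 1.24 times as often in WT, lowest at day 5 (4 cells against 21.4 by the product) and day 7 (3 against 13.1). MMP14 and TIMP1 were found together 0.31 to 0.60 times as often in WT and had a correlation of -0.71 over the WT clusters. MMP13 and TIMP1, in contrast, were found together more often than the product in all 8 libraries, 1.13 to 1.24 times in CF and 1.1004 to 1.63 times in WT. MMP13 and TIMP3 gave 0.72 (4 cells against 5.56, CF day 9) to 1.32 in CF and 1.02 to 1.31 in WT. MMP13 and TIMP2 gave 1.14 to 1.31 in CF and 0.52 to 1.55 in the 3 WT libraries with enough cells. MMP14 and TIMP2 were found together 1.15 to 1.84 times as often in the 3 WT libraries with enough cells to give a product of at least 5, with a correlation of 0.16 over WT clusters.

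**Figure D5:**
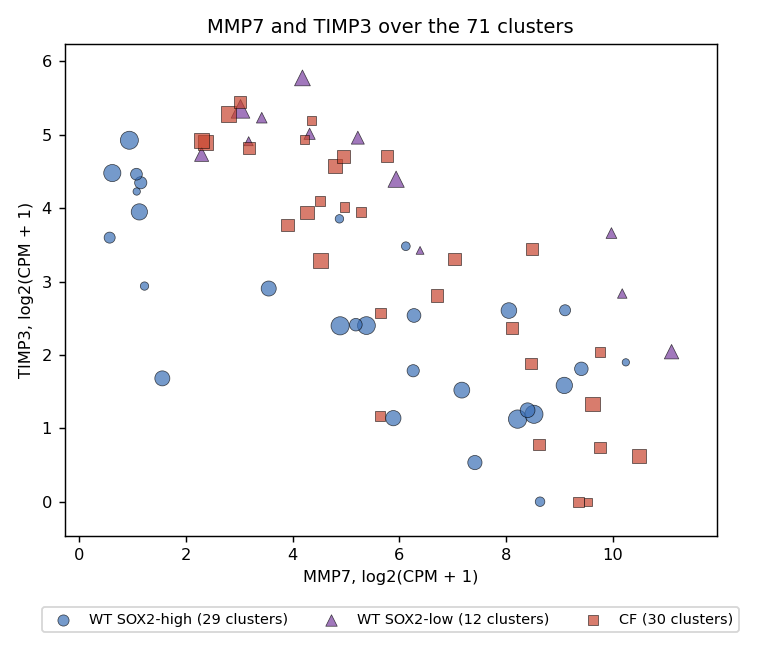
TIMP3 against MMP7, both as log2(CPM + 1), in the 71 clusters, with symbols as in the plot of TIMP1 against MMP14. Clusters with the most MMP7 had little TIMP3, and the Pearson correlation was -0.69 over all 71 clusters.

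Genes whose levels followed a member most closely over the 71 clusters were listed by Pearson correlation of log2(CPM + 1), up to 3 for each member that reached 10 CPM in a cluster, among 11266 genes. For MMP14 they were SOX2 (0.98), PAOX, a polyamine oxidase (0.98), and NDN (0.98). MMP14 and SOX2 both part the SOX2-high WT clusters from all other clusters, and their correlation within the SOX2-high clusters was not taken. For MMP7 they were CUNH19orf33 (0.90), the ceramidase ACER2 (0.90) and the lysosomal fucosidase FUCA1 (0.89). For TIMP1 they were the small heat shock protein HSPB1 (0.89), the tyrosine kinase SRC (0.84) and the phospholipase PLCD3 (0.84), and those given for TIMP2 were the transcription factor FOXO1 (0.85) and HHIPL1 (0.85). For TIMP3 they were PPP1R14C (0.90), the tensin TNS4 (0.86) and TP63, a transcription factor of basal epithelial cells (0.86). MMP13 had no close match, with CDK5R1 (0.59), PLK3 (0.59) and PHLDA1 (0.58), though over the 30 CF clusters alone CDK5R1 reached 0.93.

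In the annotation table of the assembly MMP7 (positions 853113 to 861437) and MMP13 (1149937–1160915) stand at the ends of a run of 10 protein-coding genes, 6 with an MMP symbol and 4 without one. The table names no chromosome. The other 4 MMP genes of the run (MMP20, MMP27, MMP8 and MMP12) had at most 2 UMIs in any library. An unnamed gene of the run, LOC101688986 (1044115–1051362), singled out after its values were seen, was at 22.4, 66.2, 51.6 and 166 CPM in WT and 4.19, 1.66, 0.32 and 1.56 CPM in CF. Within WT it was at 25.4, 118, 77.2 and 235 CPM in SOX2-high cells and 2.04, 5.45, 2.97 and 9.68 CPM in SOX2-low cells, so it was high where MMP14 was. MMP14 (20700508–20711069) overlaps SLC7A7 in the table, TIMP1 (3051766–3055472) overlaps SYN1, TIMP2 (3113261–3157724) overlaps CEP295NL and TIMP3 (10939843–10996364) overlaps SYN3. SLC7A7 was between 0.51 and 1.30 CPM in the 8 libraries and the other 3 overlapping genes were under 0.1 CPM.

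Of the other family members, 16 of 20 listed genes (19 MMPs and TIMP4) were among the features, and the other 4 were not analysed here. The unnamed genes of the run above, LOC101688986 among them, were not assigned to the family. They are not part of this count or of the protease sums. Of the 16 genes only MMP15, a membrane-type protease like MMP14, reached 10 CPM. It was at 6.43, 14.1, 13.1 and 23.8 CPM in WT and 18.0, 21.4, 25.2 and 31.3 CPM in CF, and its difference was 1.35, 0.57, 0.89 and 0.38, at least 2-fold at day 2 alone. MMP28, MMP17, MMP25 and MMP23B peaked at 4.65, 2.71, 2.06 and 1.61 CPM. The other 11 stayed under 1 CPM, MMP21 highest among them at 0.72 CPM, followed by MMP19 (0.33), MMP16 (0.26), MMP2 (0.21), MMP11 (0.11), MMP20 (0.040), MMP24 (0.029), MMP12 (0.020), MMP8 (0.014), TIMP4 (0.014) and MMP27 (0).

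Genes that act with the members were taken from 4 further lists. Of the 12 ADAM and ADAMTS proteases, 7 reached 10 CPM, and 1, 1, 3 and 3 of these were called higher in CF at day 2, 5, 7 and 9 and none lower, beside 4.79%, 2.53%, 4.87% and 3.58% of all genes tested called higher and 4.25%, 4.69%, 3.66% and 3.92% lower. With 15 or fewer tested genes in a list, 1 gene is already above these shares. The share of all genes called in the same direction on all 4 days was not counted. ADAMTS1, a secreted protease that cuts proteoglycans, was the only gene of the lists so called. It was at 6.93, 13.3, 12.6 and 7.41 CPM in WT and 20.1, 42.5, 81.6 and 57.2 CPM in CF, and the CF/WT ratio was 2.91 (2.68–3.16), 3.19 (2.99–3.40), 6.45 (6.01–6.93) and 7.72 (7.08–8.43). Of 15 genes of plasminogen activation and proprotein processing, through which MMP proforms can be activated, 10 were tested, and 2, 0, 0 and 1 were called higher in CF and 1, 1, 1 and 3 lower. Of 11 surface partners and binding proteins 6 were tested, with 1, 0, 1 and 1 higher and none lower. Of 16 AP-1, ETS and RUNX transcription factors 15 were tested, with 1, 0, 0 and 1 higher and 2, 0, 0 and 4 lower.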

How the data were processed

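Reads had been aligned by the authors to ASM1176430v1.1, a ferret genome assembly, and UMIs counted in Cell Ranger 5.0.1, and the count matrices they deposited hold whole UMI counts of 27912 genes in 44243 barcodes. With Seurat the authors filtered cells, removed doublets, clustered WT and CF cells separately and named the clusters. Their deposited cell table gives library, cluster, class and the percent of mitochondrial UMIs for 32945 retained cells, and a second deposited table gives the pseudotime score of each cell and lineage. Their normalized table and cell cycle calls were not used.

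UMIs of retained cells were summed per library, class and cluster and scaled to CPM. Intervals are 95% intervals (exact Poisson for counts, Clopper-Pearson for shares, exact conditional binomial for ratios) and cover counting error only. The pseudocount was 1 CPM. With 1 library per group no test was run and no p-value was taken from cells. Called means at least 2-fold apart among genes of at least 10 CPM in a library. Shares were taken from cells of at least 3000 UMIs thinned to 3000. Co-detection was compared with the product of the shares. The functions were tested on simulated data. Members, lists and the SOX2 limit were chosen with earlier results of these data known. The named genes were the 7 members, list genes called in 1 direction on all 4 days, all other MMPs and TIMP4, the 3 most correlated genes of each member, and the 3 highest and the lowest cluster of each genotype. One of the genes most correlated with TIMP2 is not reported here. The overlap of genes in the annotation was taken from positions alone, since the table names no chromosome and the counting strand is not given in the sources used here. Alternatives used edgeR 4.0.16 for TMM factors. Python 3.11.15, numpy 2.4.6, pandas 2.3.3 and scipy 1.17.1 were used.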

Additional observations from a re-analysis of the deposited data

Results flagged for a closer look

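The day 9 minus day 2 difference of MMP13 had opposite signs in the 2 genotypes, 0.82 in WT and -1.74 in CF on the log2 scale. This holds for whole libraries: SOX2-low WT cells held 153 CPM at day 2 and 134 CPM at day 9. The differences between CF and WT of 4 members also changed sign with the day. The ratio intervals of the member differences given below left out 1, but they take UMIs as independent counts. For MMP7 at day 9 the CF/WT ratio was 0.951 (0.936–0.965). The tenth of cells with the most MMP7 UMIs then held 60.5% of them in WT and 67.3% in CF. MMP7 stood at 3.22, 0.76 and 0.13 at day 2, 5 and 7 and at -0.073 at day 9. MMP13 stood at 1.59 and 0.39 at day 2 and 5 and at -0.44 and -0.96 at day 7 and 9. TIMP2 stood at 1.63 at day 2, -0.90 at day 5, 1.56 at day 7 and 0.72 at day 9. TIMP3 stood at -0.14 and -0.31 at day 2 and 5 and at 0.36 at day 7. The log2 ratio of protease to inhibitor UMIs, CF minus WT, went from 0.59 and 0.084 at day 2 and 5 to -0.97 and -1.33 at day 7 and 9. With 1 library for each genotype and day, none of these differences between days or genotypes was tested.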

How the results depend on the processing

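Each difference between CF and WT was recomputed under 9 alternatives, of which leaving out barcodes found in several libraries was chosen after seeing the data. Equal weight of each class used only class names with at least 50 cells in both libraries compared and left out the other classes. WT and CF classes had been named separately. MMP14 stayed lower in CF in all 9 at every day (from -5.30 to -0.78). Against SOX2-low WT clusters alone TIMP1 turned to -0.44 at day 2 and -0.15 at day 9, and no other called difference changed sign. MMP7 at day 7 kept its direction under only 4 of 9, TIMP3 under 6 to 8 of 9, and TIMP2 at day 5 and 9 under 8 of 9. Against SOX2-low WT clusters 2 members in place of 4 were called higher at day 2. At day 5 the main counts were 0 higher and 1 lower, and they became 1 and 2 with thinned cells, with equal weight of each cell and with SOX2-low WT clusters, and 1 higher with equal weight of each class. At day 7, 2 were higher with equal weight of each cell. At day 9, 2 were higher with thinned cells and 0 with equal weight of each class (TIMP1 at 0.77), and 2 were lower with TMM factors, size factors, equal weight of each class and SOX2-low WT clusters. In the last of these the 2 were MMP13 (-1.46) and TIMP3 (-1.05), and MMP14 (-0.78) was no longer called. A limit of 1.5-fold gave 2 higher and 2 lower at day 5, 2 higher at day 7, and 2 and 2 at day 9.

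The log2 ratio of proteases to inhibitors, CF minus WT, was below 0 at day 7 and 9 under all alternatives. For day 2, 5, 7 and 9 it was 0.42, -0.41, -1.33 and -1.71 with thinned cells, 0.43, -0.32, -1.38 and -1.62 with equal weight of each cell, 0.78, -0.73, -0.52 and -1.02 with equal weight of each class, 0.95, 1.34, -0.22 and -0.64 against SOX2-low WT clusters, and -0.88, -0.72, -2.15 and -2.08 with equal weight of each gene. All deposited barcodes gave -0.13 at day 5 and -1.42 at day 9. With each member left out in turn it ranged from -0.20 (without MMP7) to 1.39 (without TIMP1) at day 2, from -0.51 to 1.05 (without the same 2) at day 5, from -1.61 to -0.81 at day 7 and from -2.38 to -0.80 at day 9. The cause of these moves was not tested. The day 2 to day 9 rises of MMP7 and falls of TIMP3 kept their direction under all 8 alternatives in both genotypes, as did the higher day 9 level of MMP13 in WT and its fall in CF. The CF rises of TIMP2 and MMP7 dropped to 0.029 and 0.64 with equal weight of each class, and TIMP3 stood at -0.74 (CF) and -0.91 (WT) with a pseudocount of 5, at -0.86 in CF with thinned cells and at -0.51 in WT with equal weight of each class. In clusters of at least 100 cells and a median of 3000 UMIs the highest cluster changed in 2 of 14 cases. The gene most correlated with a member was less stable, moving in 9 of 18 cases with Spearman or 1 genotype alone (by Spearman NDN in place of SOX2 for MMP14 and P4HA2 for TIMP2). No paired analysis was run, since no group (a genotype on 1 day) has more than 1 library. A fit of genotype with day as the block, which would take the 4 days as replicates, was not run. MMP9, with at most 66 UMIs in a library, is limited by depth.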
